A study of Homo sapiens with 4 samples.

Results

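The G1/S and DNA replication genes are 39 genes whose products carry a cell from late G1 into S phase and copy its DNA. They were taken by symbol from the deposited table of 23143 gene symbols, and all 39 were found. The cells were A549, a human lung adenocarcinoma line, in 4 libraries of polyadenylated RNA. The 2 DOX libraries came from cells given doxycycline, in which GATA4, a zinc finger transcription factor, was overexpressed. The 2 noDOX libraries came from cells at the normal GATA4 level, for which the design text names a vehicle. By its title the study concerned GATA4-deficient lung cancers, and the question here is whether raising GATA4 goes with a different level of the replication genes. No doxycycline-treated cells without the inducible GATA4 were analysed here, so effects of the drug and of GATA4 cannot be told apart. The labels do not say whether the cells are 1 clone or whether the replicates were separate cultures.

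In late G1, cyclin E with its kinase partner inactivates the retinoblastoma protein, and E2F transcription factors then switch on the genes of DNA synthesis. Origins are licensed when ORC, CDC6 and CDT1 load the MCM helicase, which CDC45 and GINS later activate, and DNA polymerases then copy both strands on the sliding clamp PCNA. Transcripts of these genes peak around the G1/S boundary, so their level in a culture depends on how many cells are in that phase. In bulk RNA, fewer cells in S phase and less RNA per cell cannot be told apart.

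A motif search showed what the promoters of these genes share. The window ran from 250 bases before to 50 bases after each gene start in RefSeq (GRCh38.p14), and 35 of the 39 genes had an entry. CCNE2, E2F8, MCM4 and MCM5 were not matched. An E2F-type octamer (TTTCCCGC, TTTGGCGC, TTTCGCGC or TTTGCCGC on either strand, where matches may overlap) was found in 20 of 35 windows, 57.1%, against 3.33% of 27305 promoters in RefSeq. It was found in 22.9% of 35 windows of other replication fork genes and in 8.82% of 34 windows of G2/M genes. The CHR letters TTTGAA, of the kind bound in genes of G2 and mitosis, were in 2.86% of the G1/S windows, 73.5% of the G2/M windows and 15.4% of all promoters. CCAAT was in 60.0, 76.5 and 35.7%. GATA letters (AGATAA or TGATAA) were in 1 of the 35 windows, that of RFC3, and in 16.6% of all promoters. They were also below that share in the nearest lists, at 5.71% of the other replication fork windows and 5.88% of the G2/M windows. A match describes letters and shows no binding.

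The 200 bases before the start are shown for 4 genes: E2F1, which encodes an E2F itself, MCM6, with the most octamers, PCNA, with the most negative difference between groups, and RRM2, with the most positive. Capitals mark E2F octamers on either strand in the first 3 and CCAAT in RRM2, whose window held 0 octamers. E2F1 has 2 octamers close to the start. In MCM6 pairs of octamers overlap, so that 4 matches fall in 2 stretches of capitals. The stretches are chr20:33686386-33686585, chr2:135876444-135876643 and chr20:5126623-5126822 on the minus strand and chr2:10122539-10122738 on the plus strand.
E2F1: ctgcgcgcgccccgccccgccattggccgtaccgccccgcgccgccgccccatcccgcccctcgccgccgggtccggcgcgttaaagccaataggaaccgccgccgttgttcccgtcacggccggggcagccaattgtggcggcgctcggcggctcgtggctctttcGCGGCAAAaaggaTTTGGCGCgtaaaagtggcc
MCM6: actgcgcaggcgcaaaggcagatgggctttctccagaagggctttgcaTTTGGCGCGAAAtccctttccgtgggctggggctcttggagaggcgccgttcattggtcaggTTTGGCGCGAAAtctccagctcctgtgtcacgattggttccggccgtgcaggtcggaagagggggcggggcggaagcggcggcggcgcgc
PCNA: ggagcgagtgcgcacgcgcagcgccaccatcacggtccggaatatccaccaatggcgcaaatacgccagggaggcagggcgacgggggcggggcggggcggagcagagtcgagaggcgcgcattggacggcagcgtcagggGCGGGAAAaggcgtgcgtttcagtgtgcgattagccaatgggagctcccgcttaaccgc
RRM2: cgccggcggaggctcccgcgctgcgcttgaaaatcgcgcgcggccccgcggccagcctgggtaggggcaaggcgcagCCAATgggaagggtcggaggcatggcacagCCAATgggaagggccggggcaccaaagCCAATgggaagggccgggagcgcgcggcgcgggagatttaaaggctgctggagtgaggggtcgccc

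Values are FPKM, fragments scaled by transcript length and library size, so levels of different genes can be set side by side. The depth behind them is unknown. GATA4 itself was at 75.0 and 48.0 FPKM in DOX libraries 1 and 2, against 12.2 and 14.5 FPKM in noDOX libraries 1 and 2, without overlap. Its log2(FPKM + 1) difference was 2.09 (SE 0.30), and in the fit over all tested genes the induced gene itself missed the threshold of 0.05 (limma, adjusted p = 0.289). All 6 epithelial markers were at 1 FPKM or more in every library, led by KRT8 and KRT18. Of the fibroblast and blood markers, COL1A1 and CD14 reached 1 FPKM in every library, and no endothelial marker did. The FPKM of all genes summed to 975728 to 1238480 in the DOX libraries and 989493 to 1381820 in the noDOX libraries.

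Replicate libraries of 1 group differed in the replication genes, and this bears on every comparison given here. Of the 39 genes, 35 were higher in DOX library 2 than in DOX library 1, against 51.6% of 12504 tested genes. In noDOX library 1, 33 were higher than in noDOX library 2, against 51.2% of tested genes. Both held for 32 genes, against 41.5%. The median difference was 0.44 between the DOX libraries and 0.38 between the noDOX libraries on the log2(FPKM + 1) scale, against 0.02 and 0.02 over all tested genes. The 39 genes summed to 803 and 1227 FPKM in DOX libraries 1 and 2, and to 1340 and 958 FPKM in noDOX libraries 1 and 2. Over all genes the totals were 975728 and 1238480 FPKM in DOX libraries 1 and 2. In noDOX libraries 1 and 2 they were 1381820 and 989493 FPKM. Within each group the library with the larger sum of the 39 genes also had the larger total. The sums were not scaled to these totals, so part of their gap goes with the totals.

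None of the 39 genes passed the test between groups. All 39 had a mean of at least 1 FPKM and were tested in a fit over all 12504 genes at that level, on log2(FPKM + 1), with a threshold of 0.05 on the adjusted p. The number called was 0 in either direction (limma, adjusted p from 0.947 to 0.9998), and 0 reached an unadjusted p under 0.05. Of all genes in the fit 0.0880% were called, 0.0240% as higher and 0.0640% as lower, and 6.34% reached an unadjusted p under 0.05. With DOX minus noDOX as the difference, 23 genes had lower and 16 higher mean log2 values, and 56.1% of all tested genes had lower ones. The median difference was -0.10 over the 39 genes and -0.04 over all tested genes. It lay at 0.11 without DOX library 1 and 0.06 without noDOX library 1, and at -0.24 without DOX library 2 and -0.21 without noDOX library 2, so its sign depended on the library left out.

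In 33 of the 39 genes the libraries of the groups overlapped. They did not overlap in 6, with GINS1, RRM2 and CLSPN higher and CCNE1, E2F1 and CDT1 lower, against 32.0% of all tested genes. By direction, 14.7% of all tested genes were higher and 17.3% lower without overlap. Rescaling the libraries changed the counts of the 39, to 5 higher and 3 lower genes by median of ratios and to 5 higher and 6 lower by quantile normalization. The shares over all tested genes are for unscaled values and are not given after rescaling. With a trend on transcript length removed, GINS1, RRM2, CLSPN and CDT1 stayed without overlap and CCNE1 and E2F1 did not. In 33 genes the wider gap between replicates was larger than the difference between groups, as in 77.4% of tested genes. The 95% confidence intervals of the differences all held 0. Their widths differed between genes, from -0.65 to 0.30 for CCNE1 up to -1.98 to 0.83 for PCNA and -0.96 to 1.35 for TYMS. An exact permutation test of 2 against 2 libraries cannot go below p = 0.333, so none is given for single genes.

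**Figure D1:**
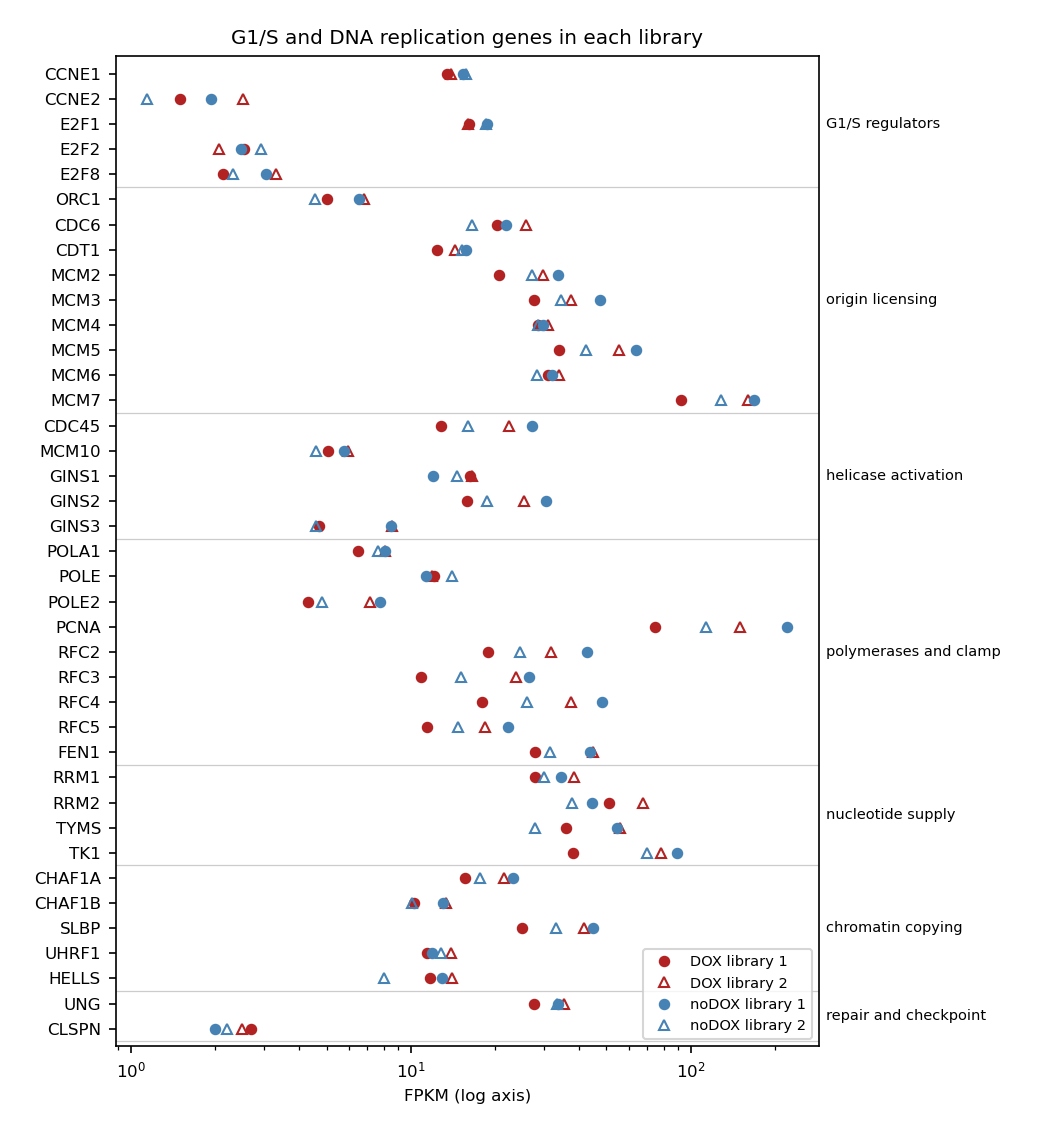
FPKM (log axis) of the 39 genes, grouped by role, with DOX libraries in red and noDOX libraries in blue, circles for replicate 1 and triangles for replicate 2. In most rows DOX library 2 and noDOX library 1 lie to the right, and in 33 rows the groups overlap.

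**Figure D2:**
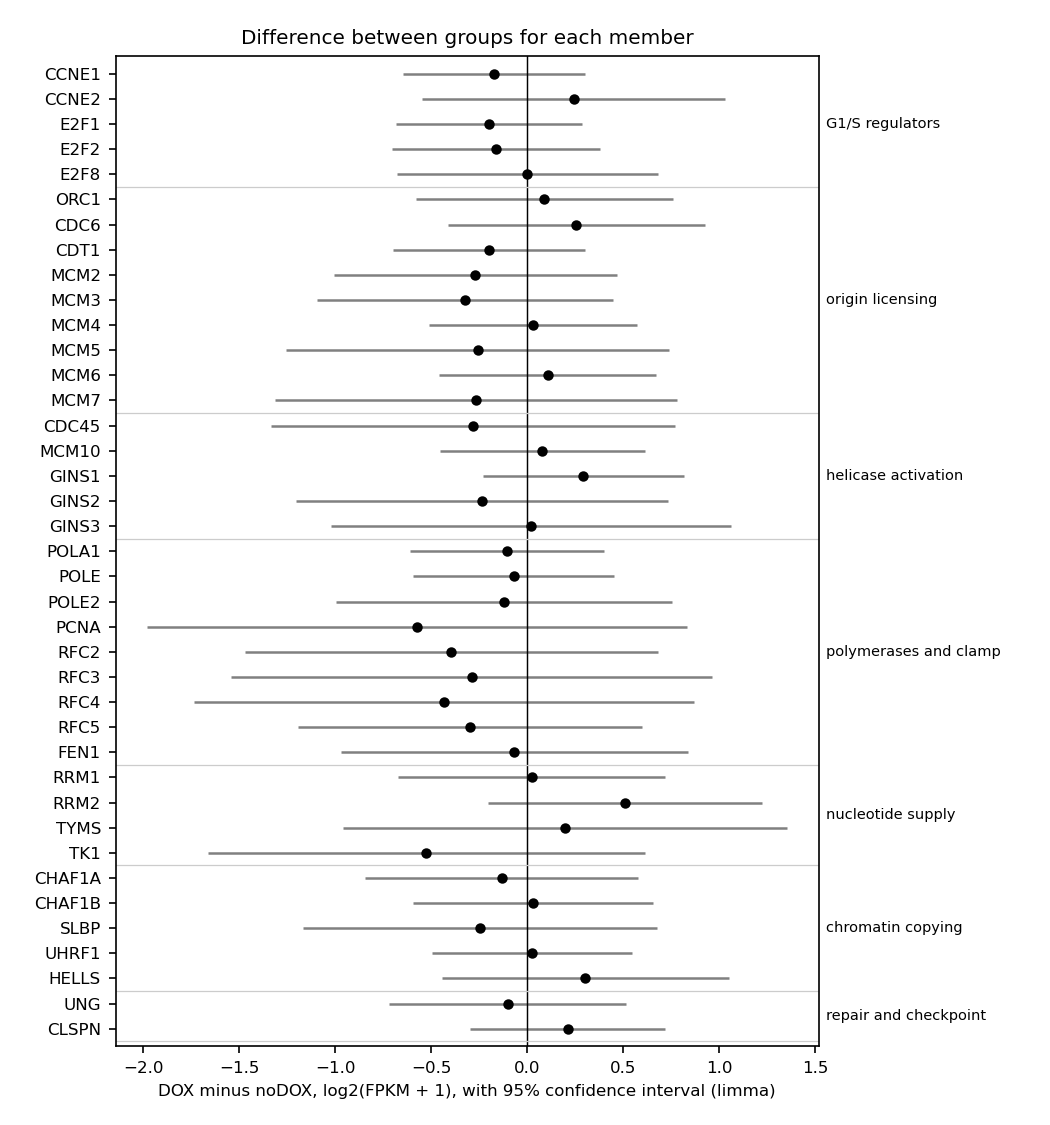
Difference between DOX and noDOX means on log2(FPKM + 1) for each of the 39 genes (points) with the 95% confidence interval from limma (bars). Every bar crosses 0, and the points run from -0.57 for PCNA to 0.51 for RRM2.

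The levels of the 39 genes spanned a wide range. PCNA and MCM7 had means of 140 and 137 FPKM over the 4 libraries, and 26 genes had means of 10 to 50 FPKM. CCNE2, CLSPN, E2F2 and E2F8 had means under 3 FPKM, the lowest being CCNE2 at 1.77 FPKM. No gene was listed at 0 in any library.

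Among the G1/S regulators, the cyclin E gene CCNE1 and the activator E2F1 were slightly lower in the DOX libraries. CCNE1, the regulatory subunit that drives entry into S phase, was at 13.5 and 13.9 FPKM in DOX libraries 1 and 2 and at 15.3 and 15.8 FPKM in noDOX libraries 1 and 2. E2F1 was at 16.1 and 16.0 FPKM in the DOX libraries and at 18.7 and 18.5 FPKM in the noDOX libraries. In both genes the replicates lay close together and the groups did not overlap, and the log2 differences were -0.17 (SE 0.18) and -0.20 (SE 0.18). These standard errors come from limma, which moderates each gene's spread with that of other genes at its level, and neither gene passed. CCNE2, the second cyclin E, was at 1.501 and 2.51 FPKM in the DOX libraries and at 1.93 and 1.15 FPKM in the noDOX libraries, with overlap. CCNE2 shares 1629 exon bases with INTS8 on the other strand, and its low level is uncertain to that extent. E2F2, another activator, and E2F8, an E2F that represses, had log2 differences of -0.16 and 0.00.

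Origin licensing genes went in both directions, 4 with higher and 5 with lower mean values. CDC6, which helps load the helicase, was at 20.3 and 25.9 FPKM in the DOX libraries and at 21.9 and 16.6 FPKM in the noDOX libraries, with overlap. Its partner CDT1 was at 12.4 and 14.4 FPKM in the DOX libraries and at 15.7 and 15.2 FPKM in the noDOX libraries, without overlap. Their log2 differences were 0.25 (SE 0.25) and -0.20 (SE 0.19). The ratio of CDC6 to CDT1 was 1.64 and 1.80 in the DOX libraries, against 1.39 and 1.09 in the noDOX libraries. The ratios did not overlap, whereas CDC6 alone did. This ratio was examined after the values were seen. The longest transcripts were 4810 bases for CDC6 and 3240 for CDT1, and a trend with length was not removed from the ratio. Among all 741 pairs of the replication genes, 35.9% of the ratios did not overlap, so a lack of overlap was common.

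The 6 subunits of the MCM2-7 helicase summed to 234 and 348 FPKM in DOX libraries 1 and 2 and to 375 and 289 FPKM in noDOX libraries 1 and 2. These sums were not scaled to the library totals, which were also larger in DOX library 2 and noDOX library 1. MCM7 was the most abundant, at 92.5 and 160 FPKM in the DOX libraries and at 168 and 128 FPKM in the noDOX libraries. It made up 39.6 and 46.1% of the subunits' FPKM in the DOX libraries, and 44.9 and 44.4% in the noDOX libraries. MCM3 was at 27.6 and 37.2 FPKM in the DOX libraries and at 47.3 and 34.5 FPKM in the noDOX libraries, with a log2 difference of -0.32 (SE 0.29). MCM2, MCM4, MCM5 and MCM6 and the origin recognition gene ORC1 had log2 differences of -0.27 to 0.11, all with overlapping groups. MCM4 and MCM6 held a share between 7.89 and 13.3% each, largest in DOX library 1, where MCM7 held its smallest share. MCM7 shares 392 exon bases with AP4M1 on the other strand.

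Among the helicase activation genes, 3 had higher and 2 lower mean values. GINS1, a subunit of the GINS complex in the active helicase, was at 16.3 and 16.6 FPKM in the DOX libraries and at 12.0 and 14.6 FPKM in the noDOX libraries. These did not overlap, and the log2 difference was 0.29 (SE 0.20). Its partner GINS2 was at 15.9 and 25.5 FPKM in the DOX libraries and at 30.5 and 18.7 FPKM in the noDOX libraries, with overlap. GINS1 held 44.1 and 32.7% of the FPKM of GINS1 to GINS3 in the DOX libraries and 23.5 and 38.5% in the noDOX libraries, shares that overlapped. CDC45, which binds the MCM helicase to activate it, was at 12.8 and 22.5 FPKM in the DOX libraries and at 27.0 and 16.0 FPKM in the noDOX libraries. MCM10, which acts with CDC45, and GINS3 had log2 differences of 0.08 and 0.02.

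Polymerase, clamp and clamp loader genes had lower mean values in all 9 members, and in all 9 the groups overlapped. PCNA, the sliding clamp, was at 74.8 and 150 FPKM in the DOX libraries and at 221 and 114 FPKM in the noDOX libraries. The log2 difference was -0.57 (SE 0.53), while the replicates alone differed by 0.998 between the DOX libraries and by 0.95 between the noDOX libraries. RFC4, a subunit of the clamp loader, was at 17.9 and 37.4 FPKM in the DOX libraries and at 48.2 and 25.9 FPKM in the noDOX libraries. RFC2, another subunit, was at 18.8 and 31.8 FPKM in the DOX libraries and at 42.8 and 24.6 FPKM in the noDOX libraries. In these 3 genes the order was noDOX library 1, DOX library 2, noDOX library 2 and DOX library 1, so each group held 1 high and 1 low library. Of the 9 genes, DOX library 1 lay below noDOX library 1 in 8 and below noDOX library 2 in 9. DOX library 2 lay below noDOX library 1 in 7 and below noDOX library 2 in 1. For these pairs in the same order, the counts over all 39 genes were 34, 27, 20 and 5. The shares over all tested genes were 54.4, 53.0, 56.2 and 48.2%. Of the summed FPKM of RFC2 to RFC5, RFC4 held 30.3 and 33.6% in the DOX libraries and 34.5 and 32.3% in the noDOX libraries. POLA1 and POLE, the catalytic subunits of polymerases alpha and epsilon, POLE2, RFC3, RFC5 and the flap nuclease gene FEN1 had log2 differences of -0.30 to -0.07. The count of 9 lower genes became 3 without DOX library 1, 5 without noDOX library 1 and 7 with the length trend removed. PCNA, FEN1, RFC3 and RFC5 have named pseudogene copies that can share reads.

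Genes of nucleotide supply held the most positive difference of the 39. RRM2, the cell cycle regulated subunit of ribonucleotide reductase, was at 51.0 and 67.7 FPKM in the DOX libraries and at 44.5 and 37.6 FPKM in the noDOX libraries. These did not overlap, and the log2 difference was 0.51 (SE 0.27), which missed the threshold (limma, adjusted p = 0.947, 0.181 or more under each of the 16 alternatives). RRM1, the large subunit, was at 27.7 and 38.4 FPKM in the DOX libraries and at 34.4 and 29.9 FPKM in the noDOX libraries, with a difference of 0.02. TK1, the thymidine kinase of the salvage route, was at 37.9 and 78.1 FPKM in the DOX libraries and at 89.4 and 69.5 FPKM in the noDOX libraries. TYMS, which makes thymidylate anew, was at 35.8 and 55.9 FPKM in the DOX libraries and at 54.6 and 27.7 FPKM in the noDOX libraries. The last 3 genes overlapped between groups, and TK1 and TYMS had log2 differences of -0.52 (SE 0.43) and 0.20 (SE 0.44).

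Ratios of 2 genes within a library do not depend on the scaling between libraries. They were examined after the values were seen. The trend with transcript length described below can still enter a ratio or share of genes of unlike length, and it was not removed here. The longest transcripts were 3673 bases for RRM2, 3166 for RRM1, 1662 for TYMS and 1681 for TK1. The ratio of RRM2 to RRM1 was 1.84 and 1.76 in DOX libraries 1 and 2 and 1.29 and 1.26 in noDOX libraries 1 and 2, so replicates lay closer together than the groups. RRM2 to TK1 was 1.34 and 0.866 in the DOX libraries and 0.498 and 0.541 in the noDOX libraries. Of the FPKM of the 4 nucleotide genes, RRM2 held 33.5 and 28.2% in the DOX libraries and 20.0 and 22.8% in the noDOX libraries, and TK1 held 24.9 and 32.5% in the DOX libraries and 40.1 and 42.2% in the noDOX libraries. The shares of both genes did not overlap. RRM2 had a higher ratio without overlap to 32 of the 38 other genes, CDC6 to 25 and HELLS to 25, while TK1 had a lower one to 19 and MCM3 to 17. These counts follow in part from the differences of the single genes and add no separate evidence. Over all 741 pairs of the 39 genes, 35.9% of the ratios did not overlap, and pairs with a gene in common are not independent. RRM2 shares 1077 exon bases with AC007240.1 on the same strand and has named pseudogenes, and TYMS shares 967 exon bases with ENOSF1 on the other strand, so both values are uncertain to that extent.

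**Figure D3:**
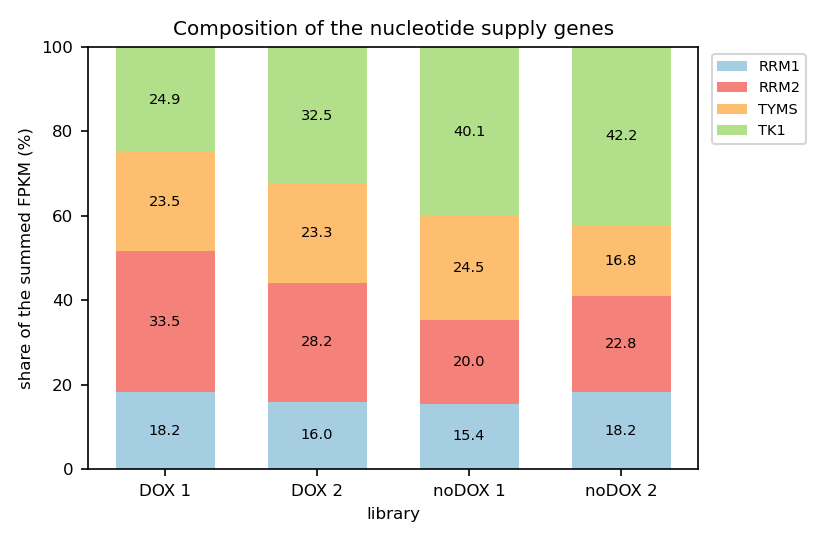
Share (%) of RRM1, RRM2, TYMS and TK1 in their summed FPKM in each library, DOX libraries on the left. RRM2 holds 33.5 and 28.2% in the DOX libraries against 20.0 and 22.8% in the noDOX libraries, and the TK1 share runs the other way.

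Chromatin copying genes overlapped between the groups in all 5 members. SLBP, which binds the stem-loop of histone mRNA, was at 24.9 and 41.7 FPKM in the DOX libraries and at 44.8 and 33.0 FPKM in the noDOX libraries. HELLS, a chromatin remodeller needed for DNA methylation, was at 11.7 and 14.1 FPKM in the DOX libraries and at 13.0 and 8.03 FPKM in the noDOX libraries. CHAF1A, the large subunit of the histone chaperone CAF-1, was at 15.6 and 21.6 FPKM in the DOX libraries and at 23.2 and 17.6 FPKM in the noDOX libraries. Their log2 differences were -0.25, 0.30 and -0.13, against standard errors of 0.35, 0.28 and 0.27. CHAF1B and UHRF1, which guides the maintenance methyltransferase to copied DNA, both had differences of 0.03.

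Of the genes of repair and checkpoint, CLSPN, which encodes the checkpoint adaptor claspin, was at 2.68 and 2.49 FPKM in the DOX libraries and at 1.997 and 2.201 FPKM in the noDOX libraries. The groups did not overlap, and the log2 difference was 0.21 (SE 0.19). UNG, which removes uracil from DNA, was at 27.5 and 35.1 FPKM in the DOX libraries and at 33.6 and 33.3 FPKM in the noDOX libraries, with overlap.

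The genes that differed most between the DOX libraries also tended to differ most between the noDOX libraries. Across the 39 genes, the difference of DOX library 2 over DOX library 1 and that of noDOX library 1 over noDOX library 2 had Pearson's r = 0.83 and Spearman's rho = 0.82. These pairs share no library, but genes are not independent replicates, and transcript length is common to both axes. Over all 12504 tested genes r was 0.35 and rho 0.75. With libraries of the same number set together the sign reverses, and this r was -0.352. It was -0.758 over the 12112 genes outside the small RNA classes, so a high r was not particular to the 39 genes. With a trend on transcript length removed, the 39 genes had r = 0.71 and rho = 0.61, and the values over all genes are not given. TK1, RFC3, RFC4 and PCNA differed by 1.02, 1.05, 1.02 and 0.998 between the DOX libraries. CCNE1, E2F1, CLSPN and POLE differed by 0.04, -0.01, -0.08 and -0.03. The medians by role for the DOX pair were 0.67 for polymerases and clamp, 0.64 for helicase activation, 0.38 for origin licensing and 0.04 for G1/S regulators, and for the noDOX pair 0.60, 0.68, 0.38 and 0.01. The 20 genes with an E2F octamer had medians of 0.31 and 0.34 in these pairs, and the 15 without one 0.46 and 0.38. Between groups, the 20 had a median of -0.11 and the 15 a median of -0.13.

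**Figure D4:**
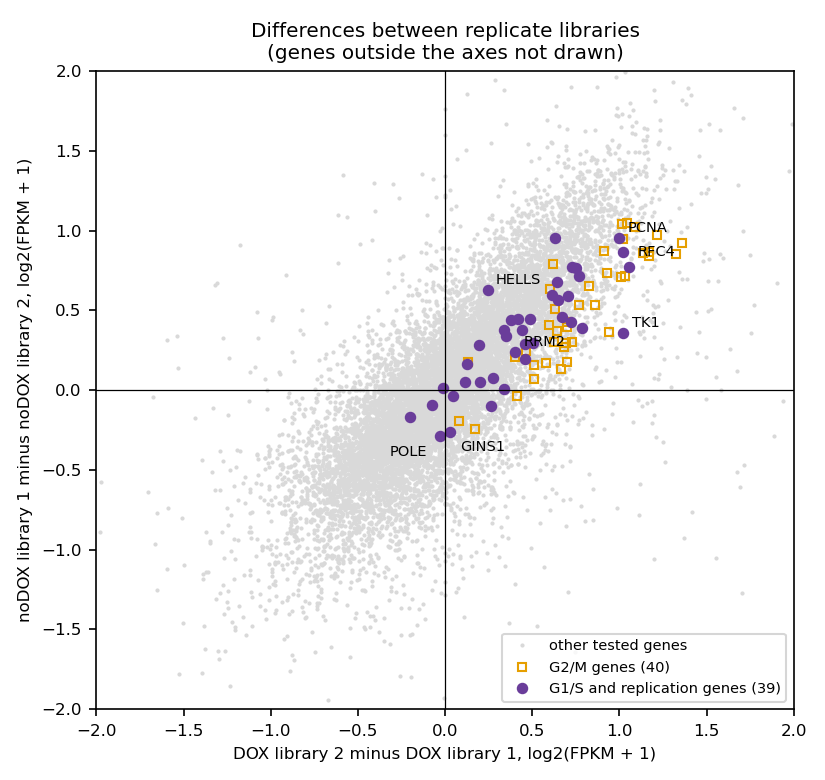
Log2(FPKM + 1) difference of DOX library 2 over DOX library 1 (horizontal) and of noDOX library 1 over noDOX library 2 (vertical) for the 39 genes in purple, 40 G2/M genes as open orange squares and other tested genes in grey. Of the 39 genes, 32 lie above and to the right of 0, and PCNA and RFC4 lie near 1 on the horizontal axis.

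Transcript length moved with these differences between replicates and with the difference between groups. Over all tested genes with a known length, the median DOX minus noDOX difference was -0.28 under 1000 bases, -0.15 at 1000 to 2000 bases, -0.06 at 2000 to 4000 bases and 0.07 over 6000 bases. In the same genes, the medians for the DOX and noDOX pairs were 0.40 and 0.49 for transcripts of 1000 to 2000 bases, and -0.26 and -0.28 for those over 6000 bases. Among the 39 genes, the 7 of 1000 to 2000 bases had medians of 0.73 and 0.77, the 21 of 2000 to 4000 bases 0.46 and 0.38, and the 10 of 4000 to 6000 bases 0.25 and 0.18. The correlation of log2 length with the difference across the 39 genes was r = -0.67 for the DOX pair and -0.59 for the noDOX pair. With a smooth trend on length removed from each library, the medians of the 39 genes were 0.38 and 0.27, with 35 and 30 genes higher, against -0.02 and -0.02 over all genes. The lengths are of the longest GENCODE transcript and need not be those the authors used. What else the libraries differed in was not tested.

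Of the other genes of the pathway 0 were called (limma). Of 45 listed replication fork genes 44 were tested, 12 with higher and 32 with lower mean values, a median of -0.16 and 0 with an unadjusted p under 0.05. Of all tested genes 56.1% had lower mean values, and these counts are not given with 1 library left out. Those with the smallest p were the nuclease gene EXO1 (log2 difference -0.34), the fork factor gene WDHD1 (0.24) and the primase subunit gene PRIM1 (-0.44). Of 20 genes of RB and E2F control, 9 had higher and 11 lower mean values, a median of -0.03, and 1 had an unadjusted p under 0.05. This was MYBL2, which encodes the cell cycle transcription factor B-MYB, itself an E2F target. It was at 122 and 119 FPKM in the DOX libraries and at 46.2 and 34.0 FPKM in the noDOX libraries, a log2 difference of 1.58 (SE 0.27) without overlap. It missed the threshold over all genes tested (limma, adjusted p = 0.404). E2F5, an E2F that acts with the RB relatives, and CDKN1B, the CDK inhibitor p27, were lower without overlap, with log2 differences of -0.43 and -0.38, and neither passed. CDKN1A, the CDK inhibitor p21, was at 131 and 84.3 FPKM in the DOX libraries and at 68.6 and 153 FPKM in the noDOX libraries. Within each group it was higher in the library where most replication genes were lower. Of all tested genes 51.6% were higher in DOX library 2 than in DOX library 1. In noDOX library 1, 51.2% were higher than in noDOX library 2. The opposite order, as in CDKN1A, was therefore common in each pair. A link between CDKN1A and the replication genes was not tested.

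The G2/M list of 40 genes varied between replicates like the G1/S genes. All 40 were higher in DOX library 2 than in DOX library 1, and 37 were higher in noDOX library 1 than in noDOX library 2, with medians of 0.70 and 0.47. Between groups 5 had higher and 35 lower mean values, where 56.1% of all tested genes had lower ones. The median was -0.20, and 0 were called, with 0 at an unadjusted p under 0.05 (limma). How these counts change with 1 library left out is not given. MKI67, the proliferation marker, was at 19.9 and 21.1 FPKM in the DOX libraries and at 15.7 and 18.1 FPKM in the noDOX libraries. ECT2, a cytokinesis factor, and CENPE, a kinetochore motor, had log2 differences of -0.55 and -0.44. Whether the G1/S and G2/M lists differ in their response was not tested.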

How the data were processed

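Polyadenylated RNA of 2 DOX and 2 noDOX libraries was sequenced, per the labels' protocols. The authors deposited gene-level FPKM, 1 column a library. Per the submitters' processing notes, TopHat2 2.0.10, Bowtie, Cufflinks 2.2.1 and Cuffdiff were used on hg19. The annotation, the strand setting and any rescaling of the libraries were not stated in the sources used here. Reads of an antisense partner can therefore not be told apart from those of a gene. Depth is unknown, which allows no counting interval.

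Here log2(FPKM + 1) was fitted for the 12504 genes averaging 1 FPKM or more with limma 3.58.1 in R 4.3.3. The model had 2 group means, a mean-variance trend and 2 residual degrees of freedom, and p-values were two-sided with Benjamini-Hochberg adjustment over all genes at 0.05. On this scale the change of low genes is understated. Replicates may be technical, since no label says where each came from, and p-values then cover only the spread between these samples.

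The 39 genes and all lists were chosen with earlier results of these data known. In each role the 3 genes with the smallest p and the most abundant one are given in every library, and RRM1 was added after its values were seen. From other lists the 3 with the smallest p are named, and GATA4, CDKN1A and MKI67 in any case. TICRR was not matched by symbol.

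Alternatives changed the pseudocount, the low-value filter, the scaling and the moderation, left out small RNA genes (by symbol) or 1 library, or added a replicate block. A crossed pairing and the removal of a length trend were added after the data were seen. Transcript lengths, known for 88.8% of tested genes, and shared exon bases were matched by symbol in GENCODE release 29 (GRCh38). Promoter sequences are from RefSeq on GRCh38.p14.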

Additional observations from a re-analysis of the deposited data

How the results depend on the processing

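Of the 39 genes 0 were called under any of the 16 alternatives, and 14 kept the sign of their difference under each of them in which they were tested: CCNE1, E2F1, E2F2, CDT1, MCM2, MCM3, PCNA, RFC2 and TK1 lower, and CDC6, MCM6, GINS1, RRM2 and CLSPN higher. The filter, moderation, small RNA and block settings left each log2 difference as it was, so they could not change a sign. With 1 library left out, a group then holds a lone library that is assumed to vary like the other group. The counts over all genes then ran from 4 to 31 higher and 19 to 59 lower, against 3 and 8. The members without overlap ran from 3 to 18 higher and 4 to 25 lower, which follows in part from comparing 1 library with 2. The share of all tested genes without overlap is not given for these settings. The member counts can therefore not be read as a departure from it. The median of the 39 ran from -0.24 to 0.11. Differences that changed sign when 1 library was left out ran as follows: CCNE2 -0.0028 to 0.49, E2F8 -0.23 to 0.23, ORC1 -0.13 to 0.31, MCM4 -0.028 to 0.087, MCM5 -0.61 to 0.092, MCM7 -0.66 to 0.12, CDC45 -0.67 to 0.10, MCM10 -0.063 to 0.22, GINS2 -0.58 to 0.11, GINS3 -0.36 to 0.40, POLA1 -0.24 to 0.033, POLE -0.21 to 0.071, POLE2 -0.43 to 0.19, RFC3 -0.82 to 0.24, RFC4 -0.95 to 0.077, RFC5 -0.62 to 0.025, FEN1 -0.40 to 0.27, RRM1 -0.21 to 0.25, TYMS -0.28 to 0.67, CHAF1A -0.35 to 0.088, CHAF1B -0.14 to 0.20, SLBP -0.61 to 0.11, UHRF1 -0.10 to 0.16, HELLS -0.011 to 0.62, UNG -0.27 to 0.068. E2F8 was at -0.0033 with a pseudocount of 0.1, and POLE2 and FEN1 at 0.00073 and 0.017 with the length trend removed.

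Over all genes, 5 were higher with a pseudocount of 0.1, 5 lower with a pseudocount of 5, 0 higher and 1 lower with no filter, 6 higher with robust moderation, 1 higher and 0 lower with small RNA genes left out, and 5 lower with the length trend removed. The causes were not tested. Members higher without overlap numbered 5 with median-of-ratios scaling, and 5 higher and 6 lower with quantile normalization, without the share over all genes under these scalings. No scaling moved the median over all genes by more than 0.1. With the replicate number as a block, 30 genes were higher and 35 lower over all genes, and 0 of the 39. Deviations of same-numbered libraries correlated at -0.352 over 12504 genes and at -0.758 over the 12112 outside the small RNA classes. The first value is the r of 0.35 between the replicate differences with its sign reversed, not a second observation. Whether the replicate numbers pair the libraries was not tested. The crossed pairing, chosen after seeing the data, set DOX library 2 with noDOX library 1. As a block it called 2 higher and 5 lower genes over all genes and 0 of the 39. Of the 39 genes, 6 reached an unadjusted p under 0.05 with this block (limma), against 0 without it. The share of all tested genes at that level with this block is not given. Since the block was also chosen from these data, the 6 cannot be read as a result about the 39 genes. Under the mean of at least 5 FPKM, 35 of the 39 were tested. The depth is unknown, so no limit that it sets can be given.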
